A study of Mus musculus with 16 samples.

Results

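The genes described here are 37 genes of the mouse cell cycle, chosen by name and with earlier results of these data known. They comprise 19 that act in G1 and S phase and 18 that act in G2 and mitosis. Of the 37 genes, 34 could be measured, 17 in each phase group, out of 30102 genes on the arrays. Ccnd1 and Mcm7 lie on probe sets that carry several symbols, and Ccnb1 was not matched, so no values are given for these 3. Each of the 34 had a single probe set with a signal above the 40th percentile of every array, and all 34 passed the filter on low values.

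Total RNA of 16 samples was hybridised to Affymetrix arrays, and every value below is a log2 signal, so that a difference of 1 is a doubling. All samples come from male 129SV mouse embryonic stem cells (ESCs) of 8 lines, each measured after 12 days without leukaemia inhibitory factor (LIF) and in medium with LIF. EBRTcH3 served as wild type, and the other 7 lines derive from it through a knockout of all 3 MBD3 isoforms (Mbd3abc-KO). MBD3 is a subunit of the NuRD complex, which joins chromatin remodelling to histone deacetylation. Into the knockout cells went an empty vector, 1 of the isoforms MBD3a, MBD3b and MBD3c, or MBD3a without its coiled coil, without its methyl-CpG-binding domain (MBD), or without both. MBD-deleted and doubly deleted here name the 2 lines whose MBD3a transgene lost the MBD; the empty vector line has no MBD3 and so no MBD either, and MBD3b and MBD3c are known to differ from MBD3a in the amino-terminal region that holds the MBD. The 3 lines lacking the coiled coil (empty vector, coiled-coil-deleted and doubly deleted) are set against the 5 that retain one (EBRTcH3, MBD3a, MBD3b, MBD3c and MBD-deleted). There was 1 array per line and condition, so lines are the replicates, 3 against 5, and the knockout lines share 1 parental background; the labels do not give the number of clones. Values per array are listed as empty vector, coiled-coil-deleted and doubly deleted for the lacking lines, and as EBRTcH3, MBD3a, MBD3b, MBD3c and MBD-deleted for the retaining lines.

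The cell cycle is driven by cyclin-dependent kinases (CDKs), each bound to a cyclin whose level changes through the cycle. D-type cyclins with CDK4 and CDK6 begin to inactivate the retinoblastoma family, cyclin E with CDK2 drives entry into S phase, and cyclins A and B carry the cell through G2 and mitosis. Mouse ESCs cycle fast, with a short G1, and G1 lengthens as they differentiate. Many G1/S genes are regulated through E2F sites in their promoters, and many G2/M genes through the cell cycle genes homology region (CHR) and CCAAT boxes, which the DREAM and MYB-MuvB complexes and NF-Y bind.

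These elements could be read in the members' own promoters, and 6 are shown to display how the letters differ between the phase groups. Kif11, Cenpf, Ccnb2, Cdt1 and Cdk2 also carry results below, while Mcm3 passed in none of the 5 comparisons and is shown for its letters. Each is 150 bases of RefSeq sequence on build GRCm38.p6, from 100 bases before to 50 after the annotated start, written 5′ to 3′ on the gene's strand. Capitals mark the letters searched on both strands: TTCCCGC or TTGGCGC for E2F, TTTGAA for the CHR, and CCAAT. The letters of TTGGCGC and of CCAAT can overlap.
Kif11 (chr19:37376282-37376431, plus strand): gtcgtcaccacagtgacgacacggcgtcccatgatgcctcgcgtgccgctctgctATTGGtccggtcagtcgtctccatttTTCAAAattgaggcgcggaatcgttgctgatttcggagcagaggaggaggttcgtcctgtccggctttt
Cenpf (chr1:189688037-189688186, minus strand): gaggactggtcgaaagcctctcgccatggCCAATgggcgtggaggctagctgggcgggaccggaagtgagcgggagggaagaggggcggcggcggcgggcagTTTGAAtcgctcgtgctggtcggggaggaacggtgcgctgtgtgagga
Ccnb2 (chr9:70421505-70421654, minus strand): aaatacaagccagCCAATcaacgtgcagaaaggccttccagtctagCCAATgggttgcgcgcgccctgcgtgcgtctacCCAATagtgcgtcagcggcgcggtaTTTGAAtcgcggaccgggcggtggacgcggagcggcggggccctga
Cdt1 (chr8:122567915-122568064, plus strand): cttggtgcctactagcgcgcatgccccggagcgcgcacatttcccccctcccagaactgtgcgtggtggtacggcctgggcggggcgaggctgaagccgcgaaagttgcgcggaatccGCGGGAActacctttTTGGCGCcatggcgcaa
Mcm3 (chr1:20820263-20820412, minus strand): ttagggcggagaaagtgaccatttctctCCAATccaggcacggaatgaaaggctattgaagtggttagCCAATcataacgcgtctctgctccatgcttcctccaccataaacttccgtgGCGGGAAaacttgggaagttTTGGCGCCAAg
Cdk2 (chr10:128705002-128705151, minus strand): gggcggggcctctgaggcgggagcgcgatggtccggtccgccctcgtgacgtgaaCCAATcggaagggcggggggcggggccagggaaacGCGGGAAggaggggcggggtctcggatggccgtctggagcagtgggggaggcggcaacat
The first 3 belong to G2/M genes and hold CHR letters with CCAAT, and the other 3 belong to G1/S genes and hold E2F letters.

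The promoter table held 15 members of each phase group, some with more than 1 start. Over windows of 300 bases, CHR letters stood in 10 of 16 G2/M windows (62.5%), in 1 of 17 G1/S windows (5.88%) and in 17.9% of the windows of all genes. CCAAT stood in 93.8% of G2/M windows, 58.8% of G1/S windows and 37.4% of all. E2F letters showed the opposite order, with 47.1% of G1/S windows (8 of 17), 18.8% of G2/M windows (3 of 16) and 6.81% of all. These matches are descriptions of letters. Members with the same letters did not all change alike without LIF in the retaining lines, where 14.5% of all genes fell and 21.3% rose. Of the 10 measured G2/M genes with CHR letters, 5 fell, 1 rose and 4 did not pass, and all 4 without them fell. Of the 6 measured G1/S genes with E2F letters, 3 fell, 1 rose and 2 did not pass. Of the 8 without E2F letters, 0 fell, 2 rose and 6 did not pass. Genes with and without the letters were not tested against each other.

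Medians per array ran from 4.72 to 4.85, and arrays correlated at 0.953 to 0.995 over tested genes. Mbd3 was lowest in the empty vector line, at 7.45 without LIF and 7.00 with LIF, against 8.45 to 9.59 on the other 14 arrays. Klf4, a naive pluripotency factor, fell by 2.44 on the log2 scale without LIF in the retaining lines and by 1.73 in the lacking lines (adjusted p = 4.96e-08 and 0.000113, limma). The number in the title splits the lines into 2 runs, the first with EBRTcH3, MBD3a, MBD3b, MBD3c and the empty vector, and the second with the 3 domain-deleted lines. The labels do not say what the numbers stand for, and each run holds lines of both classes, so values within the runs are given beside the results.

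In the retaining lines, LIF withdrawal went with higher signals of the cyclins that act before S phase and lower signals of most mitotic genes that changed. Of 34 members 7 rose (20.6%) and 12 fell (35.3%), and 15 did not pass. Among all 22872 genes tested, 21.3% rose and 14.5% fell, so the share of members that rose lay near that of all genes and the share that fell lay above it. The phase groups differed: 5 rose and 3 fell of 17 G1/S genes, with a median change of −0.01, and 2 rose and 9 fell of 17 G2/M genes, with a median of −0.20, beside 0.04 over all tested genes. Because RNA was taken from whole cultures, fewer cycling cells and less RNA of these genes per cell cannot be told apart. A gene passed at a limma adjusted p under 0.05, adjusted over all genes tested, and changes are given with their standard error (SE).

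**Figure D1:**
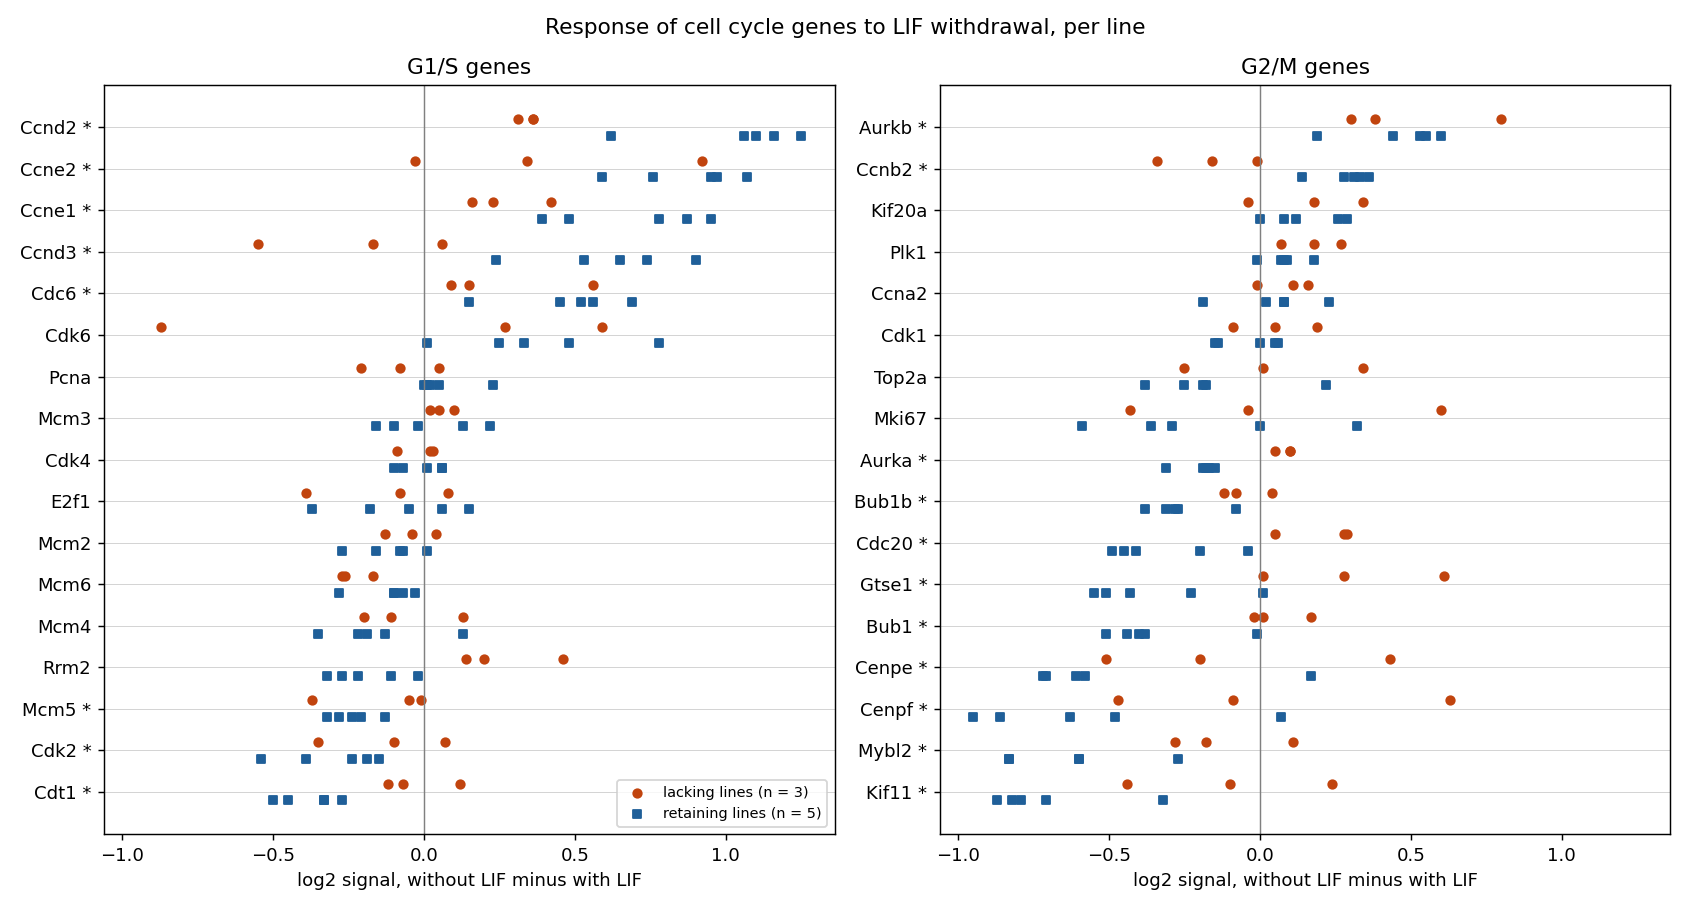
Change in log2 signal (without LIF minus with LIF) for each measured member, with G1/S genes on the left and G2/M genes on the right; each circle is 1 of 3 lacking lines, each square 1 of 5 retaining lines, and an asterisk marks genes that passed in the retaining lines. Ccnd2, Ccne2, Ccne1 and Ccnd3 lie to the right of 0 in all 5 retaining lines, while Kif11 and Mybl2 lie to the left in all 5.

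All 4 measured D- and E-type cyclin genes rose. Ccnd2, a D-type cyclin, stood at 6.56, 6.05, 6.33, 6.49 and 6.30 without LIF in the retaining lines, against 5.40, 5.43, 5.08, 5.39 and 5.24 with LIF. No array without LIF reached down to the arrays with LIF, and the change was 1.04 ± 0.09 (SE, adjusted p = 9.75e-06). Its signal is low for a member, yet above the 40th percentile on each array. Ccnd3, another D-type cyclin, had 11.06, 10.93, 10.56, 10.51 and 10.17 without LIF, against 10.41, 10.03, 9.82, 9.98 and 9.93 with LIF. The groups overlapped because EBRTcH3 with LIF, at 10.41, lay above the MBD-deleted line without LIF, at 10.17. All 5 lines moved up, by 0.24 in the MBD-deleted line and by 0.53 to 0.90 in the others. The change was 0.61 ± 0.11 (limma adjusted p = 0.00122).

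The E-type cyclins bind CDK2 and promote replication. Ccne1 had 10.02, 10.13, 10.15, 10.16 and 9.89 without LIF, against 9.63, 9.26, 9.20, 9.38 and 9.41 with LIF, a change of 0.69 ± 0.10 (adjusted p = 0.000212). Ccne2 had 7.83, 7.97, 7.95, 8.15 and 7.67 without LIF, against 6.88, 7.00, 6.88, 7.39 and 7.08 with LIF, a change of 0.87 ± 0.12 (adjusted p = 0.000248). Neither gene overlapped between conditions.

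None of the kinase partners passed as higher in the deposited values. Cdk2 had 9.44, 9.53, 9.54, 9.46 and 9.34 without LIF, against 9.83, 9.72, 9.69, 9.70 and 9.88 with LIF, and fell by 0.30 on the log2 scale with no overlap (adjusted p = 0.0197). Cdk4, at −0.01 ± 0.07, did not pass, and neither did Cdk6, at 0.37 ± 0.18 (adjusted p = 0.133). Cdk6 moved up in all 5 retaining lines, however. It passed as higher with the run of titles as a covariate and when the empty vector line was left out. Leaving out EBRTcH3 or the MBD-deleted line took the call from Cdk2, whose adjusted p reached 0.0640.

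The 2 licensing factors moved apart. Cdc6, which loads the MCM helicase with the origin recognition complex, had 8.85, 9.44, 9.44, 9.45 and 9.23 without LIF, against 8.40, 8.88, 8.75, 8.93 and 9.08 with LIF, and rose by 0.47 ± 0.10 (adjusted p = 0.00286). Cdt1, its partner in loading, had 10.13, 10.35, 10.47, 10.30 and 10.54 without LIF, against 10.46, 10.85, 10.80, 10.75 and 10.81 with LIF, and fell by 0.38 on the log2 scale (SE 0.07, adjusted p = 0.00216). Each moved one way in all 5 lines, while the ranges overlapped because EBRTcH3 was the lowest line for both genes in both conditions.

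The helicase and replication genes changed little. Of the 5 measured MCM genes, which encode subunits of the replicative helicase, Mcm5 passed, with 10.72, 11.26, 11.15, 11.10 and 11.12 without LIF, against 11.00, 11.39, 11.39, 11.31 and 11.44 with LIF. It fell by 0.24 on the log2 scale (adjusted p = 0.0347), and the call was lost on leaving out any 1 of the 5 retaining lines, with an adjusted p of up to 0.0921. Mcm2, Mcm3, Mcm4 and Mcm6 had changes between −0.15 and 0.01 and did not pass. Pcna, the sliding clamp of the polymerases, stood at 0.06 ± 0.07, Rrm2, the small subunit of ribonucleotide reductase, at −0.19 ± 0.08 and E2f1, an activating E2F, at −0.08 ± 0.10, and none passed.

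Among G2/M genes the largest falls were in a spindle motor and a transcription factor. Kif11, the motor that pushes spindle poles apart, had 10.19, 10.21, 10.36, 10.22 and 10.48 without LIF, against 11.01, 11.08, 11.07, 11.01 and 10.80 with LIF. The conditions did not overlap, and the change was −0.70 ± 0.11 (adjusted p = 0.000467). Mybl2, the MYB protein that joins MuvB to activate late genes, had 11.33, 11.46, 11.43, 11.15 and 11.66 without LIF, against 12.16, 12.06, 12.03, 11.98 and 11.93 with LIF, a change of −0.63 ± 0.10 (adjusted p = 0.000473). In both genes the MBD-deleted line had the highest signal without LIF and the lowest with LIF.

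The kinetochore genes fell in 4 of 5 retaining lines. Cenpf, a large kinetochore protein, had 9.76, 9.46, 9.67, 9.70 and 9.87 without LIF, against 10.24, 10.41, 10.53, 10.33 and 9.80 with LIF, a change of −0.57 ± 0.17 (adjusted p = 0.0192). Cenpe, a kinetochore motor, had 9.45, 9.41, 9.54, 9.50 and 9.58 without LIF, against 10.06, 10.13, 10.25, 10.08 and 9.41 with LIF, a change of −0.49 ± 0.15 (adjusted p = 0.0254). The exception for both was the MBD-deleted line, which was already low with LIF and moved up, by 0.07 for Cenpf and 0.17 for Cenpe. Cenpe lost its call without any 1 of the other 4 retaining lines (adjusted p up to 0.0897), and Cenpf without MBD3a, MBD3b or MBD3c (up to 0.0758).

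Checkpoint and anaphase genes fell by less. Bub1, a spindle checkpoint kinase, had 10.32, 10.19, 10.31, 10.18 and 10.44 without LIF, against 10.70, 10.59, 10.75, 10.69 and 10.45 with LIF, a change of −0.35 ± 0.09 (adjusted p = 0.00830). Its ranges did not overlap, and the line that barely moved was again the MBD-deleted one. Bub1b, the BUBR1 checkpoint protein, changed by −0.26 ± 0.07 (adjusted p = 0.0156). Cdc20, an activator of the anaphase-promoting complex, changed by −0.32 ± 0.09 (adjusted p = 0.0143). Gtse1, a microtubule-associated protein of G2, changed by −0.34 ± 0.11 (adjusted p = 0.0274), and Aurka, the centrosomal Aurora kinase, by −0.20 ± 0.07 (adjusted p = 0.0389). Bub1b lost its call without MBD3b or MBD3c (adjusted p up to 0.0598), Cdc20 without EBRTcH3, MBD3a or MBD3b (up to 0.0589), Gtse1 without EBRTcH3, MBD3a or MBD3b (up to 0.101) and Aurka without EBRTcH3, MBD3a, MBD3b, MBD3c or, through the shared spread, the coiled-coil-deleted line (up to 0.122).

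Not all late genes fell. Aurkb, the kinase of the chromosomal passenger complex, had 9.54, 9.47, 9.34, 9.36 and 9.33 without LIF, against 8.99, 8.87, 8.90, 8.83 and 9.14 with LIF, and rose by 0.46 ± 0.09 (adjusted p = 0.00258) with no overlap. Ccnb2, a B-type cyclin, rose by 0.28 ± 0.08 (adjusted p = 0.0127), in 5 of 5 lines. Cdk1, the mitotic kinase, Ccna2, its cyclin partner in S and G2, Plk1, the polo-like kinase, Kif20a, a motor of cytokinesis, Top2a, which untangles chromosomes, and Mki67, the proliferation marker Ki-67, did not pass, with changes between −0.18 and 0.15. Cdk1 stood at −0.04 ± 0.08 and Ccna2 at 0.04 ± 0.08. Top2a moved by −0.18, −0.25, −0.38 and −0.19 in EBRTcH3, MBD3a, MBD3b and MBD3c, and by 0.22 in the MBD-deleted line. Mki67 also moved up in the MBD-deleted line alone, by 0.32. With the MBD-deleted and doubly deleted lines left out, Top2a passed as lower and Mki67 did not.

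How many members fell depended on the scaling, on the MBD-deleted line and on single lines. The share of all genes called moved with these settings too. The deposited values gave 7 rises and 12 falls. With each array's median over all probe sets subtracted there were 7 rises and 5 falls, and with each array's median over genes subtracted 6 rises and 15 falls. Over all genes the corresponding counts were 4870 rises and 3311 falls as deposited, 5879 and 2500 with the probe set medians and 3711 and 5138 with the gene medians. The median change of all genes was 0.04, 0.10 and −0.06 under these 3 scalings. Kif11, Mybl2, Cenpf, Cdt1 and Bub1 fell under all 3; Ccnd2, Ccnd3, Ccne1, Ccne2, Cdc6 and Aurkb rose under all 3. Without EBRTcH3, MBD3a, MBD3b or MBD3c the number of falls was 6, 6, 5 and 7. Over all genes 11.8%, 11.8%, 12.1% and 11.4% fell in these fits, against 14.5% as deposited. Whichever line was left out, 7 or 8 members rose, where 17.1% to 21.6% of all genes rose, against 21.3% as deposited. Leaving out the MBD-deleted and doubly deleted lines gave 7 rises and 14 falls, where 22.7% of all genes rose and 15.7% fell. Of the 19 called members 16 moved the same way in both runs of titles; the exceptions were Gtse1, Cenpe and Cenpf, at −0.43, −0.66 and −0.73 over the 4 retaining lines of the first run, against 0.01, 0.17 and 0.07 in the MBD-deleted line.

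Markers of differentiation moved with these changes. The 6 ESC markers all fell in the retaining lines, with mean signals of 10.04 to 10.58 over the 6 genes without LIF, against 11.43 to 11.66 with LIF. Smooth muscle markers averaged 8.16 to 8.72 without LIF, against 5.26 to 5.51 with LIF, with 3 of 4 passing as higher. Trophectoderm markers averaged 8.43 to 9.73 without LIF, against 5.88 to 6.43 with LIF, with 4 of 5 passing as higher. Of 4 tested fibroblast markers 3 were higher, with 1 of 6 below the 40th percentile on all retaining arrays without LIF and 3 of 6 with LIF. Endoderm gave 3 higher and 2 lower of 6, neural markers 1 and 3 of 4, and both mesoderm markers were higher. No smooth muscle or trophectoderm marker lay below the 40th percentile on all arrays of a group, and the part of any such cells in the cell cycle values was not tested.

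In the 3 lacking lines no member passed in either direction after LIF withdrawal. Among all genes 1.71% passed as higher and 1.22% as lower. By limma 5 of 34 members (14.7%) had an unadjusted p under 0.05, a share near the 15.8% of all genes. Aurkb came closest, with 9.70, 9.75 and 9.76 without LIF, against 8.90, 9.45 and 9.38 with LIF. Its conditions did not overlap, and the change was 0.49 ± 0.12 (adjusted p = 0.0561), close to the 0.46 of the retaining lines. Aurkb passed, as the 1 member higher, with the run of titles as a covariate, with either median subtracted, with a variance trend, with array weights, without the line as a block, and without the MBD-deleted line. Ccnd2 had 5.37, 5.49 and 5.42 without LIF, against 5.01, 5.13 and 5.11 with LIF, a change of 0.34 ± 0.12 (adjusted p = 0.181), and Rrm2 stood at 0.27 ± 0.10 (adjusted p = 0.233). Ccne2 stood at 0.41 ± 0.16, and its 3 lines did not move together: 8.05, 7.94 and 8.00 without LIF, against 7.71, 7.97 and 7.08 with LIF. ESC marker means were 10.79 to 10.92 without LIF, against 11.32 to 11.52 with LIF, in these lines, and 1 of 6 passed as lower. Of the smooth muscle markers 2 of 4 passed as higher after LIF withdrawal, and of the trophectoderm markers 2 of 5. No fibroblast, endoderm, neural or mesoderm marker passed.

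**Figure D2:**
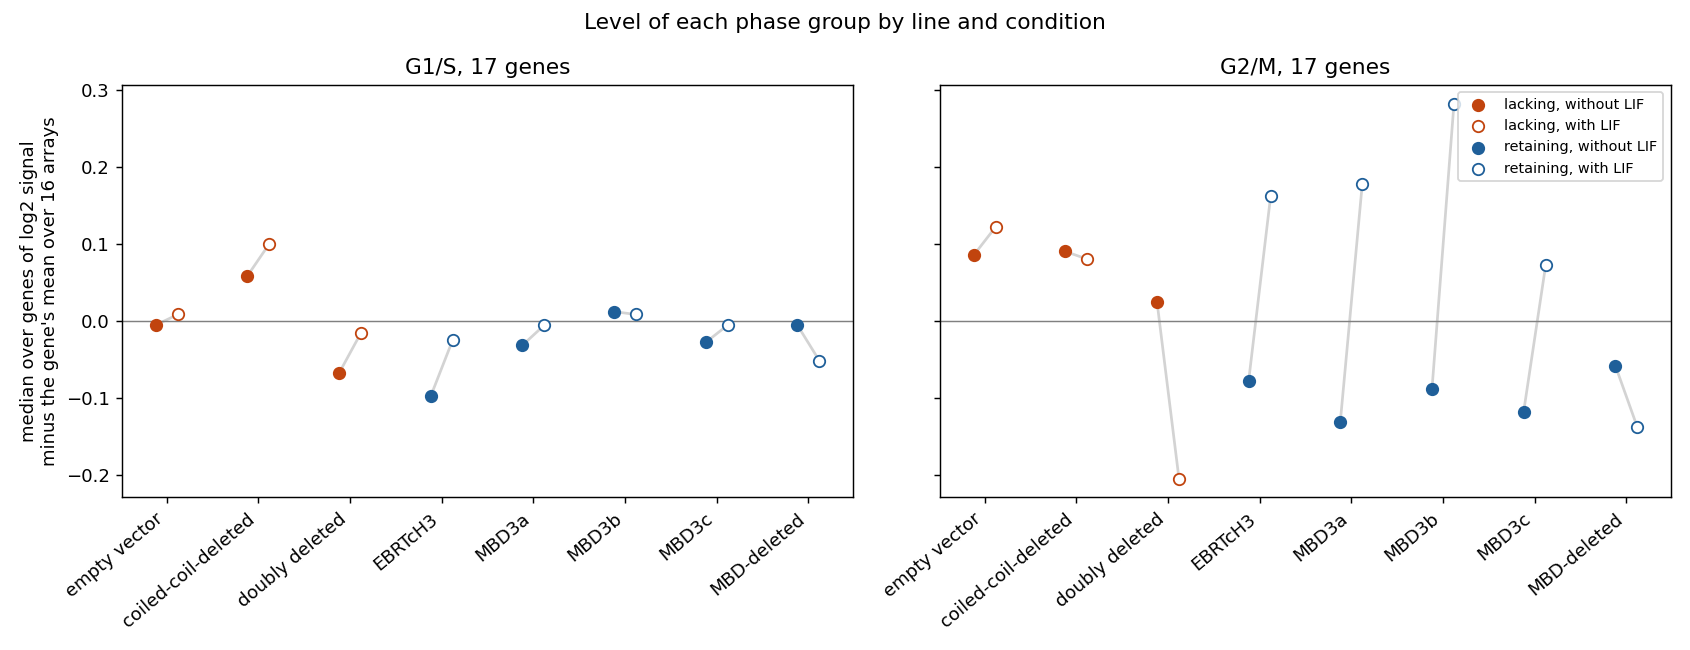
Median over the 17 genes of each phase group of the log2 signal minus the gene's own mean over 16 arrays, by line; filled points are without LIF and open points with LIF, orange for lacking and blue for retaining lines. In the G2/M group the open point lies well above the filled one in EBRTcH3, MBD3a, MBD3b and MBD3c, and below it in the doubly deleted and MBD-deleted lines.

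Line by line, the G1/S group as a whole hardly moved, with medians of the response between −0.07 and 0.06 in all 8 lines. The G2/M group spread more widely. Its median response was −0.02 in the empty vector line, 0.01 in the coiled-coil-deleted line and 0.27 in the doubly deleted line, against −0.18 in EBRTcH3, −0.19 in MBD3c, −0.27 in MBD3a, −0.38 in MBD3b and 0.07 in the MBD-deleted line. The highest G2/M response in each class thus belonged to the line whose transgene is MBD-deleted. The empty vector line, which has no MBD3, had the lowest of the lacking lines. All lines of the second run of titles (doubly deleted, MBD-deleted and coiled-coil-deleted) had higher medians than all lines of the first run. The part of the run in this was not tested.

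Whether the response itself differed between the classes was tested directly, as the change in lacking minus the change in retaining lines. Of 34 members 3 were higher (Gtse1, Cdc20 and Rrm2) and 3 were lower (Ccnd3, Ccnd2 and Ccnb2), 8.82% each, where 4.17% of all genes were higher and 7.9% lower, so the share of lower members lay near that of all genes. The median difference was −0.05 for G1/S genes and 0.23 for G2/M genes, beside −0.05 over all genes. A difference above 0 was seen in 16 of 17 G2/M genes and in 42.5% of all genes. Within the runs of titles fewer G2/M genes had one. In the first run Cdk1, Ccnb2, Top2a and Mki67 did not. In the second run Ccna2, Ccnb2, Plk1, Kif20a, Top2a, Mki67 and Cenpe did not.

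The 3 cyclins had a smaller or opposite response in the lacking lines. Ccnd3 had 10.41, 10.53 and 10.20 without LIF in the lacking lines, against 10.35, 10.70 and 10.75 with LIF, so that 2 of 3 lines went down where all 5 retaining lines went up. The difference was −0.83 ± 0.18 (adjusted p = 0.0131). Ccnd2 differed by −0.69 ± 0.15 (adjusted p = 0.0136), with responses of 0.31 to 0.36 in the lacking lines and 0.62 to 1.25 in the retaining lines. Ccnb2 had 10.55, 10.49 and 10.36 without LIF in the lacking lines, against 10.56, 10.65 and 10.70 with LIF, and the difference was −0.45 ± 0.12 (adjusted p = 0.0375). For all 3 genes the responses of the classes did not overlap.

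The other 3 genes moved up or stayed level in the lacking lines. Gtse1 had 10.66, 10.57 and 10.46 without LIF in the lacking lines, against 10.05, 10.56 and 10.18 with LIF, while the retaining lines had 10.40, 10.23, 10.27, 10.37 and 10.47 without LIF, against 10.83, 10.78, 10.78, 10.60 and 10.46 with LIF. The classes' responses touched, since the coiled-coil-deleted and the MBD-deleted line both stayed at 0.01, and the difference was 0.64 ± 0.18 (adjusted p = 0.0369). Cdc20 had 10.48, 10.29 and 10.42 without LIF in the lacking lines, against 10.19, 10.24 and 10.14 with LIF, while the retaining lines had 10.06, 10.24, 10.30, 10.31 and 10.29 without LIF, against 10.55, 10.69, 10.71, 10.35 and 10.49 with LIF. All lacking lines went up, all retaining lines went down, and the difference was 0.52 ± 0.14 (adjusted p = 0.0364). Rrm2 had 10.86, 10.88 and 10.80 without LIF in the lacking lines, against 10.66, 10.74 and 10.34 with LIF, while the retaining lines had 10.61, 10.67, 10.70, 10.66 and 10.75 without LIF, against 10.72, 10.89, 11.02, 10.93 and 10.77 with LIF. That difference was 0.45 ± 0.13 (adjusted p = 0.0452).

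These calls were less steady than those within the retaining lines. Leaving out a single line took the call from Rrm2 for every line but the MBD-deleted one (adjusted p up to 0.183), from Cdc20 for every line but MBD3c and the MBD-deleted one (up to 0.128), from Gtse1 for every line but the coiled-coil-deleted and MBD-deleted ones (up to 0.116), from Ccnb2 for every line but EBRTcH3, the empty vector and the MBD-deleted one (up to 0.152), from Ccnd2 for the coiled-coil-deleted or doubly deleted line (up to 0.0572) and from Ccnd3 for the doubly deleted line (0.0681). With the run of titles as a covariate Rrm2, Cdc20, Gtse1 and Ccnb2 lost their calls, and Ccnd2 and Ccnd3 kept theirs. With each array's median over all probe sets subtracted no member was higher and 3 were lower, and over all genes 657 were higher and 2125 lower, against 953 and 1806 as deposited. Within the first run the differences were −0.67 for Ccnd2, −0.64 for Ccnd3, −0.28 for Ccnb2, 1.04 for Gtse1, 0.64 for Cdc20 and 0.43 for Rrm2. In the second run they were −0.72, −0.60, −0.58, 0.14, 0.36 and 0.32 in the same order, so that all 6 kept their sign. Without the MBD-deleted line 6 members were higher, where 6.87% of all genes were, against 4.17% with all lines.

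**Figure D3:**
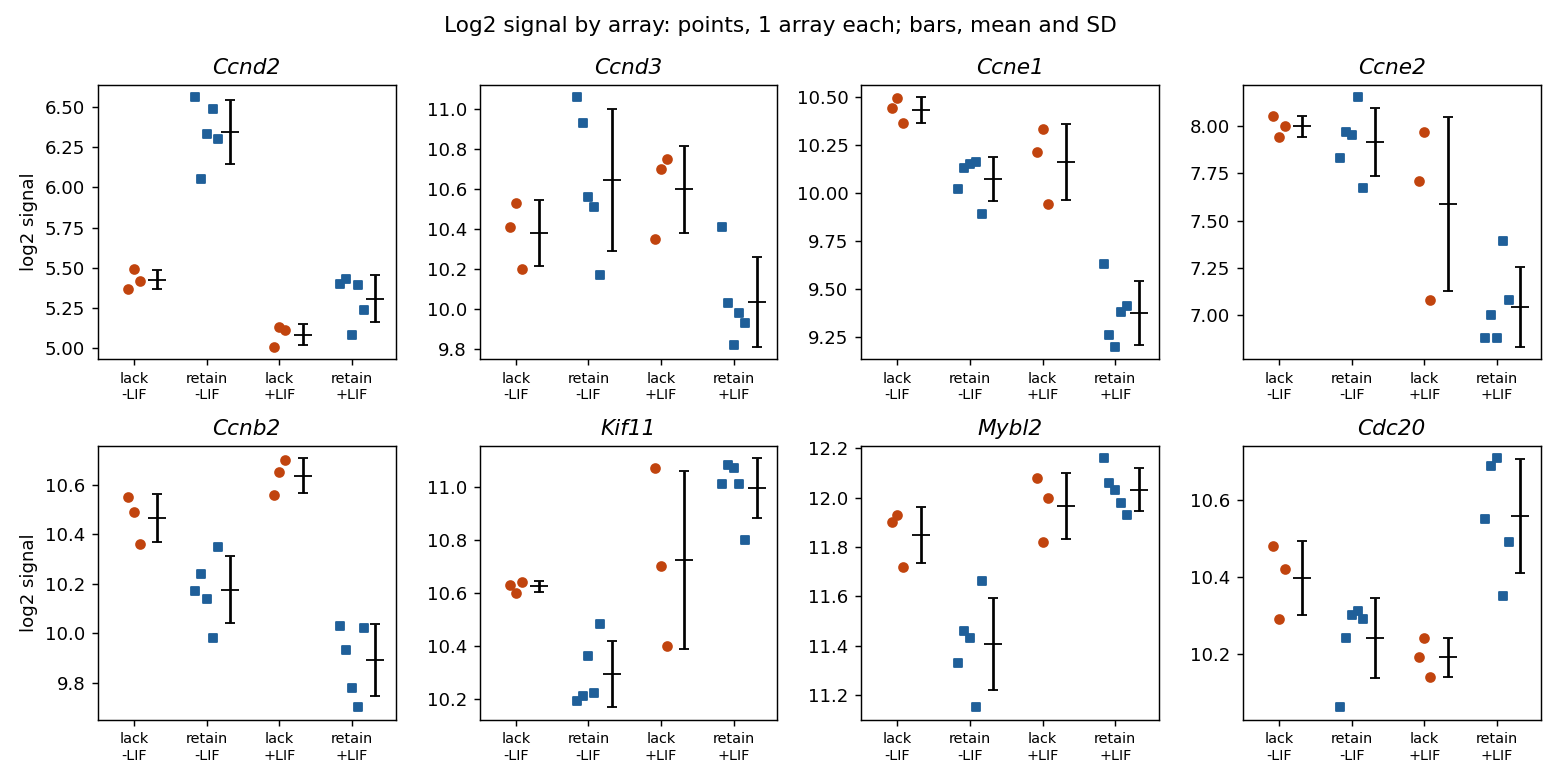
Log2 signal on each array for 8 members, with 1 point per array and the mean with its SD beside the points; in each panel the lacking lines (orange circles, n = 3) stand left of the retaining lines (blue squares, n = 5), first without LIF and then with LIF. Ccnd2 is high only in retaining lines without LIF, and Ccne1 and Ccnb2 have their lowest mean in retaining lines with LIF.

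After 12 days without LIF the lacking lines had higher signals of 5 members and a lower signal of 1, of 34 (14.7% and 2.94%), where 8.55% of all genes were higher and 12.4% lower. Ccnd2 had 5.37, 5.49 and 5.42 in the lacking lines, against 6.56, 6.05, 6.33, 6.49 and 6.30 in the retaining lines. The classes were separated, and the difference was −0.92 ± 0.11 (adjusted p = 0.000411). It kept its call whichever line was left out, and was −0.99 within the first run and −0.84 within the second.

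The genes that were higher act in both phases. Mybl2 had 11.90, 11.93 and 11.72 in the lacking lines, against 11.33, 11.46, 11.43, 11.15 and 11.66 in the retaining lines, a difference of 0.44 ± 0.11 (adjusted p = 0.0202). Ccne1 had 10.44, 10.49 and 10.36 in the lacking lines, against 10.02, 10.13, 10.15, 10.16 and 9.89 in the retaining lines, a difference of 0.36 ± 0.09 (adjusted p = 0.0140). Kif11 had 10.63, 10.60 and 10.64 in the lacking lines, against 10.19, 10.21, 10.36, 10.22 and 10.48 in the retaining lines, a difference of 0.33 ± 0.09 (adjusted p = 0.0211). None of these ranges overlapped, and the retaining line nearest to the lacking lines was the MBD-deleted one for Mybl2 and Kif11.

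Aurkb and Cdk2 were also higher. Aurkb had 9.70, 9.75 and 9.76 in the lacking lines, against 9.54, 9.47, 9.34, 9.36 and 9.33 in the retaining lines, a difference of 0.33 ± 0.08 (adjusted p = 0.0131). Cdk2 had 9.68, 9.90 and 9.76 in the lacking lines, against 9.44, 9.53, 9.54, 9.46 and 9.34 in the retaining lines, a difference of 0.32 ± 0.08 (adjusted p = 0.0205). The classes were separated for both. Over the G2/M group, 8 of 17 genes had no overlap between the classes, where 26.6% of all genes had none, and the median difference was 0.16, beside 0.01 over all genes.

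All 5 calls of higher signals could be lost by leaving out a lacking line, of which there are 3. Without the coiled-coil-deleted line 0 of 5 held, and without the empty vector or the doubly deleted line 2 members passed as higher. Over all genes 5.14%, 5.50% and 5.36% were higher in these fits, in that order, against 8.55% with all lines. By limma the adjusted p of the 5 genes rose to between 0.0577 and 0.0989 at most. Within the first and the second run the differences were 0.56 and 0.16 for Mybl2, 0.33 and 0.54 for Ccne1, 0.39 and 0.14 for Kif11, 0.27 and 0.43 for Aurkb, and 0.19 and 0.49 for Cdk2. With the run as a covariate Mybl2, Kif11 and Cdk2 lost their calls.

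With LIF present, 3 members were higher and 1 lower in the lacking lines, of 34 (8.82% and 2.94%), where 7.65% of all genes were higher and 6.48% lower; the first share lay near that of all genes. Ccne1 had 10.21, 10.33 and 9.94 in the lacking lines, against 9.63, 9.26, 9.20, 9.38 and 9.41 in the retaining lines, a difference of 0.78 ± 0.13 (adjusted p = 0.00237). Ccnb2 had 10.56, 10.65 and 10.70 in the lacking lines, against 10.03, 9.93, 9.78, 9.70 and 10.02 in the retaining lines, a difference of 0.74 ± 0.11 (adjusted p = 0.00124). Neither gene overlapped between the classes, and both kept their calls whichever line was left out, with 0.84 for Ccne1 and 0.70 for Ccnb2 in the first run and 0.72 and 0.66 in the second.

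The remaining calls with LIF were weaker. Ccnd3 had 10.35, 10.70 and 10.75 in the lacking lines, against 10.41, 10.03, 9.82, 9.98 and 9.93 in the retaining lines, a difference of 0.57 ± 0.15 (adjusted p = 0.0256), and the ranges overlapped through the empty vector line and EBRTcH3. Cdc20 had 10.19, 10.24 and 10.14 in the lacking lines, against 10.55, 10.69, 10.71, 10.35 and 10.49 in the retaining lines, a difference of −0.37 ± 0.11 (adjusted p = 0.0433), with no overlap. Leaving out single lines took the call from Ccnd3 for 5 lines (MBD3a, MBD3b, MBD3c, coiled-coil-deleted and doubly deleted, adjusted p up to 0.113) and from Cdc20 for 6 (EBRTcH3, MBD3a, MBD3b, empty vector, coiled-coil-deleted and doubly deleted, up to 0.139). Within the first run the differences were 0.29 for Ccnd3 and −0.38 for Cdc20, and within the second 0.80 and −0.30. Ccne2 stood at 0.54 ± 0.19 and did not pass (adjusted p = 0.0834), since the doubly deleted line, at 7.08, lay within the retaining lines.

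The doubly deleted and the MBD-deleted line, which carry MBD3a without its MBD, stood low in late genes while LIF was present. This was noticed after the data had been seen. Mki67 was 10.22 and 10.49 in these lines, against 10.90 to 11.42 in the other 6, and Cenpe was 8.98 and 9.41, against 9.61 to 10.25. Cenpf was 9.36 and 9.80, against 9.88 to 10.53, and Top2a was 10.50 and 10.49, against 10.85 to 11.16. The empty vector line, which also lacks the MBD because it has no MBD3, was not low, at 11.20, 9.88, 10.26 and 11.09 for Mki67, Cenpe, Cenpf and Top2a. In all, 7 of 17 G2/M genes lay below the other 6 lines in both (these 4 with Cdk1, Plk1 and Bub1b), and 1 of 17 G1/S genes did (Mcm4), while E2f1 lay above. Among all genes 5.08% lay below the other 6 lines in both and 11.7% above. Without LIF no G2/M gene lay below the others in both lines and Cenpf lay above, where 3.34% of all genes lay below and 2.51% above.

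**Figure D4:**
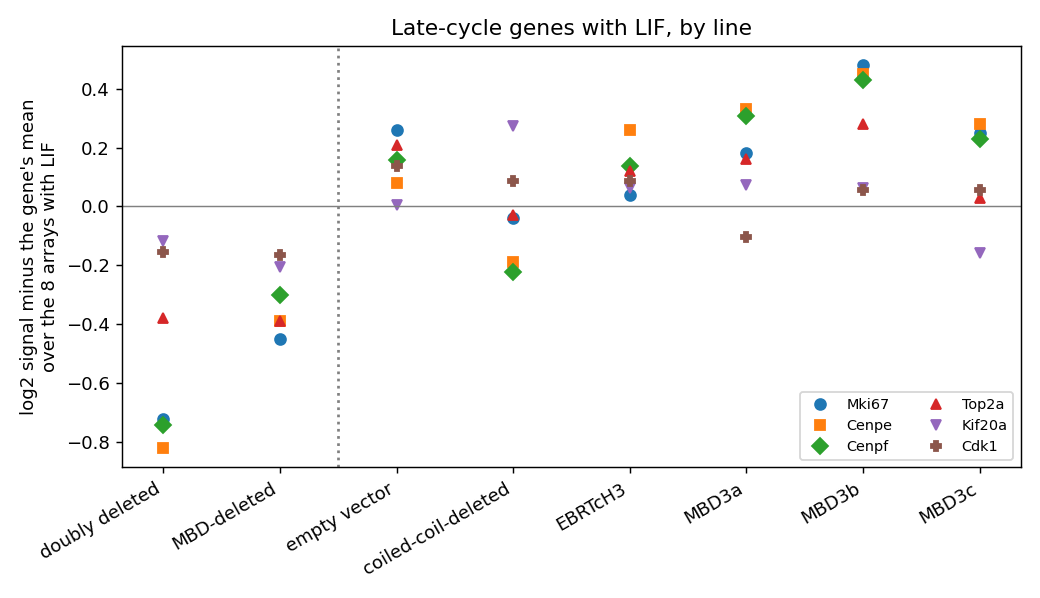
Log2 signal of 6 late-cycle members in medium with LIF, minus the gene's mean over the 8 arrays with LIF, for each line; the 2 lines with an MBD-deleted MBD3a stand left of the dotted line. Mki67, Cenpe, Cenpf and Top2a are lowest in these 2 lines. The coiled-coil-deleted line, of the same run of titles, is the next lowest for each of these genes. The empty vector line, which has no MBD3, lies above all lines of that run for them.

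A limma model with both deletions as terms was fitted over the 4 lines that carry MBD3a in full or with a domain deleted, with 1 array per line and condition. For deletion of the MBD with LIF, Mki67 differed by −0.65 ± 0.12, Cenpe by −0.68 ± 0.12, Cenpf by −0.56 ± 0.12 and Top2a by −0.45 ± 0.12. None passed (adjusted p = 0.109, 0.109, 0.111 and 0.170). In this small fit 0% of all genes passed, 3335 of 22872 (14.6%) had an unadjusted p under 0.05, and 7 of 34 members did (20.6%). Without LIF 0% of all genes passed and 1644 (7.19%) had an unadjusted p under 0.05, with 2 of 34 members, of which Ccnd3 was 10.17 in the MBD-deleted line and 10.20 in the doubly deleted line, against 10.41 to 11.06 in the other lines. The MBD-deleted and doubly deleted lines belong to the second run of titles, as does the coiled-coil-deleted line. There the same 4 genes were at 10.90, 9.61, 9.88 and 10.85 with LIF, the next lowest signal for each gene. The lines of the second run were thus the lowest for all 4 genes, and the part of the run in this was not tested.

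The genes that restrain CDKs were read from a list outside the members. This list and those that follow were chosen with earlier results of these data known. Of 7 CDK inhibitor genes measured, 4 rose (57.1%) and 1 fell (14.3%) in the retaining lines without LIF, where 21.3% of all genes rose and 14.5% fell. Cdkn1c, which encodes p57, had 9.87, 10.02, 9.54, 9.25 and 8.77 without LIF, against 8.04, 7.00, 7.41, 8.07 and 7.04 with LIF, a change of 1.98 ± 0.26 (adjusted p = 6.70e-05). Cdkn1b, which encodes p27, went the other way, with 7.14, 7.33, 7.38, 7.15 and 7.69 without LIF, against 8.09, 8.69, 8.70, 8.65 and 8.53 with LIF, a change of −1.19 ± 0.14 (adjusted p = 7.37e-05). Neither gene overlapped between conditions.

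The other inhibitors rose by less. Cdkn2a, the locus of p16 and p19ARF, had 7.10, 7.18, 7.17, 7.26 and 7.32 without LIF, against 6.20, 6.53, 6.50, 6.07 and 6.57 with LIF, a change of 0.83 ± 0.10 (adjusted p = 8.09e-05). Cdkn1a, which encodes p21, had 10.58, 10.30, 10.13, 10.35 and 10.50 without LIF, against 10.11, 10.08, 9.94, 9.89 and 9.48 with LIF, a change of 0.47 ± 0.13 (adjusted p = 0.0122). Cdkn2b, which encodes p15, changed by 0.26 (adjusted p = 0.0400), while Cdkn2c and Cdkn2d, at 0.03 and −0.08, did not pass.

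**Figure D5:**
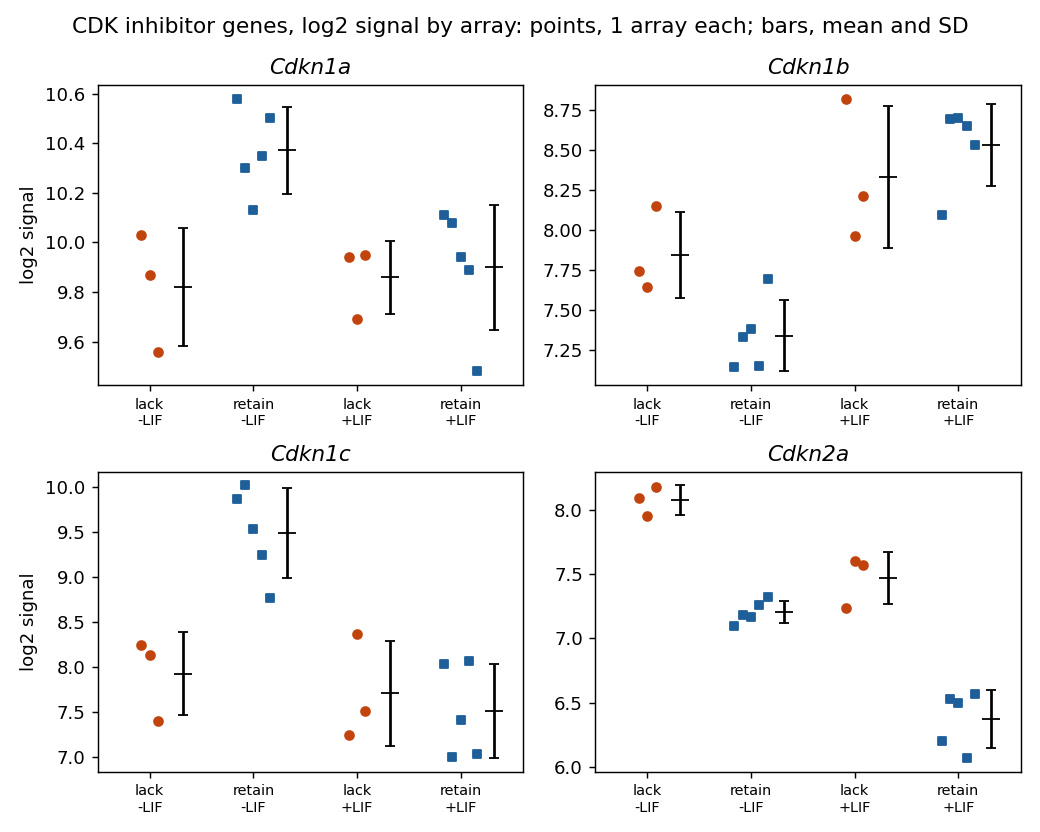
Log2 signal on each array for 4 CDK inhibitor genes, with 1 point per array and the mean with its SD beside the points; the lacking lines (orange circles, n = 3) stand left of the retaining lines (blue squares, n = 5), first without LIF and then with LIF. Cdkn2a is higher in lacking lines in both conditions, and Cdkn1c is highest in retaining lines without LIF.

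Between the classes these genes differed in both directions. Cdkn1c had 8.25, 8.14 and 7.40 in the lacking lines without LIF, against 9.87, 10.02, 9.54, 9.25 and 8.77 in the retaining lines, a difference of −1.56 (adjusted p = 0.00374), and its response differed by −1.76 (adjusted p = 0.0130). Cdkn2a had 8.09, 7.95 and 8.18 in the lacking lines without LIF, against 7.10, 7.18, 7.17, 7.26 and 7.32 in the retaining lines, and 7.24, 7.60 and 7.57 in the lacking lines with LIF, against 6.20, 6.53, 6.50, 6.07 and 6.57 in the retaining lines. The differences were 0.87 without LIF (adjusted p = 9.89e-05) and 1.10 with LIF (adjusted p = 0.000684), with no overlap in either condition. It was also the 1 inhibitor that passed in the lacking lines on LIF withdrawal, at 0.60 (adjusted p = 0.0331). Without LIF, Cdkn1a was lower in the lacking lines, by −0.55 (adjusted p = 0.0136), and Cdkn1b higher, by 0.51 (adjusted p = 0.0387).

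The wider machinery of mitosis also had more falls than rises. This list was chosen with earlier results of these data known, and its counts under other scalings are not given here. Of 29 further genes of the spindle, kinetochore and cytokinesis, 19 fell (65.5%) and 1 rose (Mad2l1, a spindle checkpoint protein, 0.26) in the retaining lines, where 14.5% of all genes fell and 21.3% rose, with a median change of −0.35, beside 0.04 over all genes. The largest falls were in Ndc80, the kinetochore's microtubule coupler, at −1.08, Hmmr, a spindle assembly protein, at −1.03, and Knl1, a kinetochore scaffold, at −0.96. In the lacking lines 1 fell (Ndc80, −0.48; 3.45%, where 1.22% of all genes fell) and 0 rose. The response was higher in the lacking lines for 8 of 29 (27.6%, where 4.17% of all genes were higher) and lower for 0, led by Knl1, Hmmr and Ckap2, a spindle protein, at 0.93, 0.89 and 0.74. Without LIF 8 were higher (27.6%, where 8.55% of all genes were) and 0 lower, led by Birc5, the survivin subunit of the passenger complex, at 0.54, Kif14, a motor of cytokinesis, at 0.43, and Dlgap5, which stabilises kinetochore fibres, at 0.38. With LIF 0 were higher and 5 lower (17.2%, where 6.48% of all genes were), led by Ndc80, Hmmr and Kif18a, a motor that dampens chromosome movement, at −0.69, −0.54 and −0.46.

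Replication genes outside the member list changed in both directions. Of 16 genes of origin licensing and firing, 8 fell (50%) and 1 rose (6.25%) in the retaining lines, where 14.5% of all genes fell and 21.3% rose: Ticrr, the treslin firing factor, fell by 0.79 on the log2 scale, Dbf4, the activator of CDC7 kinase, fell by 0.75 and Gins3, a helicase subunit, fell by 0.52, while Gins4, another of its subunits, stood at 0.25. Of 23 genes of the fork and of nucleotide supply, 9 rose (39.1%) and 5 fell (21.7%), and the 2 lists were not tested against each other. Tk1, thymidine kinase, rose by 1.10, Dut, the dUTPase, by 0.75 and Rfc3, a clamp loader subunit, by 0.71. Pola1, the catalytic subunit of polymerase alpha, stood at −1.32, Pole2, a subunit of polymerase epsilon, at −0.41, and Prim1, a primase subunit, at −0.35. With LIF, Tk1 and Dut were higher in the lacking lines, by 0.90 (adjusted p = 0.00235) and 0.89 (adjusted p = 0.00107), and their response was smaller there, by −0.77 (adjusted p = 0.0487) and −0.54 (adjusted p = 0.0179).

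The regulators of these programmes changed in both directions. Of 15 measured pocket protein, E2F and DREAM genes, 5 rose (33.3%) and 6 fell (40%) in the retaining lines, where 21.3% of all genes rose and 14.5% fell. Rbl2, which encodes the p130 pocket protein of DREAM, had 6.04, 6.37, 6.31, 6.20 and 6.66 without LIF, against 7.18, 7.28, 7.49, 7.49 and 7.15 with LIF, and fell with no overlap, with means of 6.32 without LIF, against 7.32 with LIF (adjusted p = 4.20e-05). In the lacking lines Rbl2 had 7.21, 7.34 and 7.23 without LIF, against 7.28, 7.18 and 7.26 with LIF, and its response differed by 1.02 (adjusted p = 0.00473). Lin54, the DNA-binding subunit of DREAM that reads the CHR, changed by −0.66 and Rb1, the retinoblastoma gene, by −0.57 in the retaining lines, while E2f7 and E2f8, repressor E2Fs, changed by 0.62 and 0.52 and E2f6, another repressor, by 0.49. E2f2, an activating E2F, was higher in the lacking lines in both conditions, by 0.59 without LIF (adjusted p = 0.000413) and 0.71 with LIF (adjusted p = 0.00630).

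Checkpoint genes changed in both directions, and few ubiquitin ligase genes changed. Of 9 checkpoint and CDC25 genes 2 rose (22.2%) and 3 fell (33.3%) in the retaining lines, where 21.3% of all genes rose and 14.5% fell: Chek2, a DNA damage kinase, stood at 0.97 and Cdc25a, a phosphatase that activates CDK2, at 0.27, against Cdc25c, a phosphatase that activates CDK1, at −0.75, Chek1, a replication checkpoint kinase, at −0.58, and Atm, the kinase that answers DNA breaks, at −0.55. Of 14 ubiquitin ligase genes 2 rose (14.3%) and 0 fell: Skp2, the F-box protein that targets p27, by 0.47 (adjusted p = 0.00045) and Cks1b, its cofactor, by 0.26 (adjusted p = 0.0252). Skp2 also rose in the lacking lines, by 0.46 (adjusted p = 0.0272).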

How the data were processed

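Deposited values are log2 signals; the submitters' processing notes name RMA and affy, without versions. Of 65770 probe sets, 27 had no value; 30439 carried 1 gene symbol and were used, brought up to date by Entrez identifier (22653 matched, 827 updated). The probe set with the highest mean was kept per gene (30102 genes), and a gene was tested where it exceeded the 40th percentile of its array on 3 or more arrays (22872 genes). No counts exist, so the number of arrays limits the precision.

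limma 3.58.1 (R 4.3.3) was fitted over the 8 lines, with the line as a block for LIF withdrawal, because both arrays of a line come from the same cell line; adjusted p-values are Benjamini-Hochberg over all genes of each of 5 comparisons. The labels do not say that lines of a class are separate cultures of one kind. In the comparisons at a single LIF condition, the p-values cover the spread in signal between lines of a class. For LIF withdrawal and the difference of the response, they cover the spread of the change within lines, pooled over both classes. Either spread may be technical in part. The MBD-deletion fit, the scaling by gene medians and the fit without both MBD-deleted lines were added after seeing the data. Code was tested on simulated data. Members, lists and genes named were chosen with earlier results of these data known. Named were the 6 largest passing changes per direction, the 3 smallest p-values where fewer than 3 passed, and up to 3 genes per direction of each further list.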

Additional observations from a re-analysis of the deposited data

Results flagged for a closer look

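Each member was checked in the retaining lines, in either condition, for an array far from the rest. Chance alone gives about 1 in 20 such groups, though the groups share arrays and are not independent. Among the 68 groups of 5 arrays 7 had one, a number not tested against that rate. Of these, 3 were the MBD-deleted line with LIF: Mcm4 at 10.36, against 10.68 to 10.79 in the other retaining lines, Kif11 at 10.80, against 11.01 to 11.08, and Cenpe at 9.41, against 10.06 to 10.25. EBRTcH3 stood apart for Cdt1 with LIF, at 10.46, against 10.75 to 10.85, and without LIF for Cdc20, at 10.06, against 10.24 to 10.31, and Aurka, at 10.65, against 10.47 to 10.51. MBD3a stood apart for Mcm6 with LIF, at 10.73, against 10.51 to 10.56.

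The response to LIF withdrawal differed between lacking and retaining lines by a direct test for 6 members: by −0.83 for Ccnd3, −0.69 for Ccnd2, −0.45 for Ccnb2, 0.64 for Gtse1, 0.52 for Cdc20 and 0.45 for Rrm2.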

How the results depend on the processing

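Counts of members called depended on the setting, except that 7 rises in the retaining lines stayed between 6 and 8 in all settings tried. The share of all genes called moved with the setting too, so a change in these counts is not a result about the members. Leaving out each line in turn gave 7 to 8 rises and 5 to 12 falls in the retaining lines, 0 to 1 rises in the lacking lines, 0 to 6 higher and 1 to 3 lower responses, 0 to 6 members higher without LIF, and 2 to 4 higher and 0 to 4 lower with LIF. Subtracting the median over probe sets gave 5 falls in the retaining lines, 1 rise in the lacking lines, 0 higher responses and 0 lower with LIF; subtracting the median over genes gave 1, 5 and 3 for the last 3. Array weights gave 1 rise in the lacking lines, 8 higher and 5 lower responses, 8 higher without LIF, and 5 higher and 5 lower with LIF. Over all genes array weights gave 4.28% rises in the lacking lines and 9.74% higher and 13.9% lower responses. They also gave 11.0% of all genes higher without LIF, and 13.3% higher and 10.2% lower with LIF. A variance trend gave 1 rise in the lacking lines, 5 higher responses and 3 lower with LIF. The run of titles as a covariate gave 1, 0 and 0 for these, and 2 higher without LIF. The first run alone, with a single lacking line assumed to vary like the others, gave 1 higher and 1 lower response, 0 higher without LIF and 0 higher with LIF. Without a filter there were 1 higher response and 0 lower with LIF, and without both MBD-deleted lines 0 lower with LIF. Without the line as a block (no pairing) there were 1 rise in the lacking lines and 5 higher responses; the line as a random block gave 5 lower with LIF. Of 3060 values of single members, 0 turned sign while called and 160 turned sign while not called. A further 2688 kept direction and call, 134 lost the call and 78 gained it. Signal over background limits genes near the floor, such as Ccnd2.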
